A study of Mus musculus with 15 samples.

Results

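The genes described here are 10 integrin subunits that bind extracellular matrix or cell-surface counter-receptors. They are the alpha subunits Itga1, Itga3, Itga4, Itga5, Itga6, Itga9 and Itgav and the beta subunits Itgb1, Itgb5 and Itgb7. They were picked by symbol from the 24034 gene lines of a count table, all 10 were present, and all 10 were among the 13662 genes that passed a filter on low counts. The table held RNA sequencing of 15 libraries of differentiated mouse embryonic stem (ES) cells, sorted by surface protein and reporter activity into 5 groups of 3. The 3 groups of the later stage carry the label HEI, which the labels do not spell out. HEI cells came from a line whose LacZ reporter was driven by the Endoglin promoter (P) with the -8 kb enhancer, written -8/P. They were sorted by surface Endoglin (ENG) and by FDG, a fluorogenic substrate that reports LacZ activity, into ENG+FDG+, ENG-FDG+ and ENG+FDG- cells. The study's design text ties this reporter to TIE2+ and c-KIT+ but CD41- haemogenic endothelial cells. The 2 groups of FLK1+ mesoderm, LacZ+ and LacZ-, came from a line whose reporter also held the +7 and +9 kb enhancers, written -8/P/+7/+9. FLK1+ cells thus differed from HEI cells in stage, in reporter line and in sort, and these cannot be told apart. Every library, the LacZ- and FDG- ones included, came from reporter-carrying cells. Strain, culture days and the number of ES clones are not stated in the labels, and the labels name no separate cultures, so p values measure only the spread between these libraries.

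Integrins are transmembrane receptors of 1 alpha and 1 beta chain that anchor cells to matrix outside and to actin inside. The alpha chain sets much of the ligand choice: the Itga1 product, with the Itgb1 product, binds collagens, those of Itga3 and Itga6 bind laminins, and that of Itga5 is the classical fibronectin receptor. The Itga4 product binds fibronectin and VCAM1, that of Itga9 binds tenascin C and other matrix proteins, and that of Itgav binds vitronectin and fibronectin with several beta partners. Itgb1 encodes the common partner of most of these chains, Itgb5 a partner of the Itgav product, and Itgb7 a leukocyte partner of the Itga4 product that binds MAdCAM-1. In the embryo, endothelium and the first blood cells both use such receptors, and blood progenitors use the Itga4 product in adhesion and homing.

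In the GENCODE M21 annotation (GRCm38, which is mm10) the members lie on 7 chromosomes. Itga4, Itga6 and Itgav are on chr2 (79255426-79333123, 71745616-71858416 and 83724397-83806916, all on the plus strand). Itga5 (103344286-103366763) and Itgb7 (102215995-102231944) are on the minus strand of chr15. Itga1 is at chr13:114953096-115101964 and Itga3 at chr11:95044474-95076801, both on the minus strand. Itga9 is at chr9:118606690-118901003, Itgb1 at chr8:128685654-128733200 and Itgb5 at chr16:33829665-33949338, all on the plus strand. Their merged exons ran from 2.77 kb for Itgb7 to 18.6 kb for Itga1, so levels are compared between genes only per kb. Exons of 3 members shared bases with another gene: 3.68% of the Itga1 exon bases with Gm49395 on the same strand, 8.04% of Itga4 with Cerkl and 5.90% of Itgav with Gm13684 on the opposite strand. How the counting treated strand is not given in the sources used here, so reads in those bases cannot be assigned with certainty.

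Promoter windows of 250 bases before to 50 bases after a gene's start were found in the RefSeq table (GRCm38.p6) for 9 of the 10 members, 10 windows in all. The RefSeq start differed from the GENCODE gene start by at most 87 bases in 8 windows, but lay 105002 bases inside the gene for Itga9 and 7603 bases inside it for the second Itga3 window, so these 2 windows are not at the gene starts given above. The windows of Itga1, Itga4 and Itgb5 are shown because these genes carry the main contrasts below: Itga1 had the largest stage difference upward, Itgb5 the largest downward, and Itga4 moved against Itga1 between HEI fractions. The windows are chr13:115101915-115102214 (minus strand), chr2:79255176-79255475 (plus strand) and chr16:33829415-33829714 (plus strand). Capitals mark the E-box letters CAGCTG, a palindrome, and the RUNX core letters TGTGGT, here on the other strand as ACCACA, and no marked match overlaps another.
Itga1: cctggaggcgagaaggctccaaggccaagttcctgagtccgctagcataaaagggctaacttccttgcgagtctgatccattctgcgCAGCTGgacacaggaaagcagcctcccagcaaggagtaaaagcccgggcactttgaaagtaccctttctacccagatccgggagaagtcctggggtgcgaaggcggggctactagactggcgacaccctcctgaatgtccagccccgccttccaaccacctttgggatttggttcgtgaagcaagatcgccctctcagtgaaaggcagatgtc
Itga4: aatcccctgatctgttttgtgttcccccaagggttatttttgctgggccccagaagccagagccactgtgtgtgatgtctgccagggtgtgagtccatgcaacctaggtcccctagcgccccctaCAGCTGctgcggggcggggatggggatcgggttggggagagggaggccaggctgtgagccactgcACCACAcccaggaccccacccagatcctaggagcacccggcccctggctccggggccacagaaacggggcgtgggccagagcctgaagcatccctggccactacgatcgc
Itgb5: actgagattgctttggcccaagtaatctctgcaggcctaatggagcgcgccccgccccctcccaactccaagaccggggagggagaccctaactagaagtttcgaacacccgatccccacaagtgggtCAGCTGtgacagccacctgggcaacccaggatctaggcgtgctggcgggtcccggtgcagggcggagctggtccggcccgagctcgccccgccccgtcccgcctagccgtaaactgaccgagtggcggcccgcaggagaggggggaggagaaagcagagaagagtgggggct
The letters CAGCTG stood in 5 of the 10 member windows (Itga1, Itga4, Itga5, Itga9 and Itgb5), and in 16.3% of all 32851 windows. TGTGGT, on either strand, stood in the Itga4 window and in the Itga3 window inside the gene, against 16.8% of all windows. The ETS core CCGGAA stood in the Itgb1 window and the other Itga3 window, against 14.9% of all windows, and the GATA letters AGATAA in none of the 10, against 11.2% of all windows. GGGCGG, the GC box and not marked above, stood in 7 of the member windows, against 35.7% of all. The member windows held 52.3% to 67.3% G and C, against a median of 52.7% over all windows. The part of this base content in the matches was not tested. These matches describe letters and not bound sites, and genes that moved in opposite directions shared CAGCTG.

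Library totals ran from 9673396 to 16337785 counts. The 5 replicate 1 libraries stood apart: they were the deepest, at 12188618 counts or more against at most 11747575 in replicates 2 and 3, and held 1.40% to 3.56% of their counts on the ribosomal transcript Rn45s, against 0.524% to 0.784%. A single library, ENG-FDG+ replicate 1, stood further apart. It had reads on 13954 genes, the fewest of all, against 15440 to 17064 genes in the other libraries. The part of this lower number of detected genes in the levels of that library was not tested. The summed level of 12 mesenchyme and smooth muscle markers was 4242 CPM (reads of the gene scaled to a common library size) there, against 270 and 578 CPM in the other 2 ENG-FDG+ libraries and 98.0 to 556 CPM in the ENG+ HEI libraries, and its 9 epithelial and endoderm markers summed to 591 CPM, against 46.2 and 75.7 CPM. Few genes carried these sums: Acta2 made up most of the first, at 3602 CPM, and Krt18 and Krt8 most of the second, at 372 and 176 CPM. Other markers of these lists stayed low, with Pdgfra, Epcam and Cdh1 at most at 4.94, 3.14 and 1.45 CPM in any HEI library. The 12 endothelial markers, all detected in every group and all called higher in HEI cells, summed to 2039 to 5721 CPM in HEI libraries and 94.9 to 517 CPM in FLK1+ libraries. Blood markers summed to 426 to 565 CPM in ENG-FDG+ libraries, against 75.0 to 117 CPM in ENG+ HEI libraries and 167 to 258 CPM in FLK1+ libraries. Runx1 and Myb reached the highest levels of this list in HEI libraries, at 302 and 122 CPM. Ptprc, Coro1a, Gata1 and Vav1 reached at most 0.509, 2.54, 3.48 and 3.90 CPM in any HEI library, with the rest between. Of 8 pluripotent cell markers 7 were tested, with 6 called lower and 1 higher in HEI than in FLK1+ cells. Mean Eng levels were 424 CPM (ENG+FDG+), 81.8 CPM (ENG-FDG+) and 454 CPM (ENG+FDG-). Single libraries spread widely around these means, with a lowest, median and highest Eng level of 39.4, 184 and 962 CPM over the 9 HEI libraries. Kdr, the gene for FLK1, averaged 494 CPM in LacZ+ and 536 CPM in LacZ- FLK1+ cells.

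All CPM values below are the deposited counts scaled by library size with TMM factors. Itgb1 was the most abundant member in every group, at 226, 221 and 251 CPM per kb of exon in ENG+FDG+, ENG-FDG+ and ENG+FDG- cells, and 99.2 and 92.2 CPM per kb in FLK1+ LacZ+ and LacZ- cells. Itga5, the fibronectin receptor chain, was the most abundant alpha member in each group mean, at 26.6 to 34.6 CPM per kb in HEI groups and 16.4 to 17.0 CPM per kb in FLK1+ groups. In FLK1+ cells this rested on replicate 1. In replicates 2 and 3 of both FLK1+ groups Itga6 was higher, at 13.5 to 15.6 CPM per kb against 11.5 to 12.4 CPM per kb. In ENG-FDG+ replicate 1 Itga3 was higher, at 49.5 CPM per kb against 42.3 CPM per kb. Itgb7 was the least abundant in the 3 HEI groups and in LacZ+ cells, at 0.214 to 0.403 CPM per kb in HEI groups and 0.483 and 0.589 CPM per kb in LacZ+ and LacZ- cells, on 2 to 50 reads a library. In LacZ- cells Itga1 was lower still, at 0.399 CPM per kb.

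**Figure D1:**
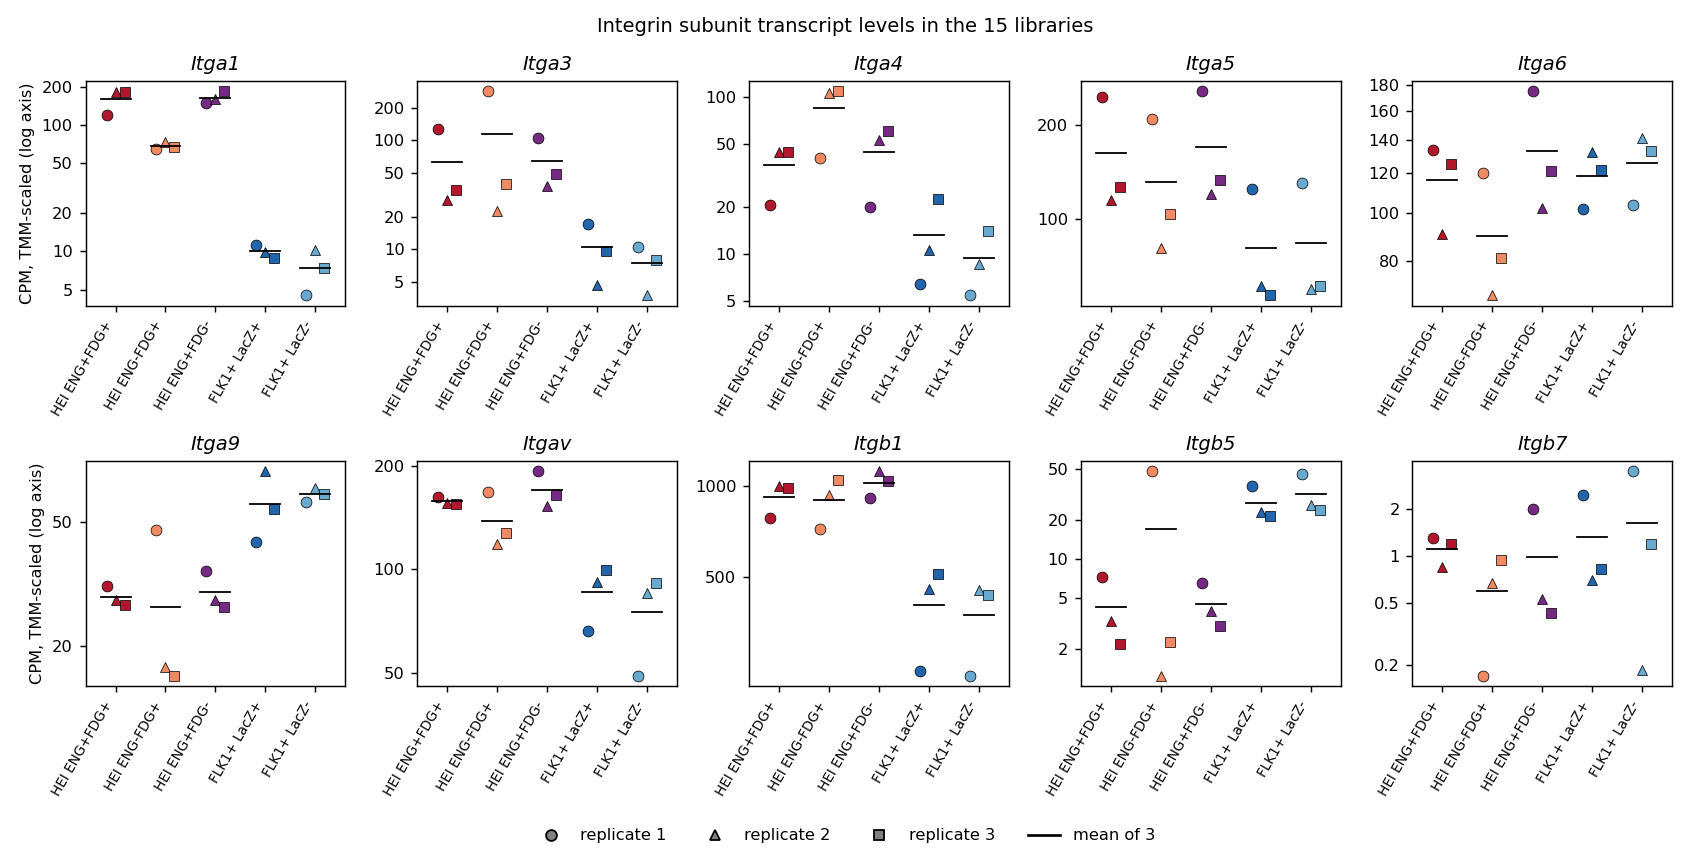
Levels of the 10 members in each library in CPM on log axes, with 1 panel a gene, the 3 HEI groups left of the 2 FLK1+ groups, marker shape for the replicate number and a line for the mean of 3. Itga1, Itga3, Itgav and Itgb1 sit higher in all 9 HEI libraries than in all 6 FLK1+ libraries, and replicate 1 (circles) departs from the others in the same direction in all 5 groups for Itga3, Itga4, Itga5, Itgb1 and Itgb5.

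Between the 9 HEI and the 6 FLK1+ libraries, most members changed. Collagen-binding Itga1, laminin-binding Itga3, Itga4, the fibronectin and vitronectin receptor chains Itga5 and Itgav, and the common beta chain Itgb1 were higher in HEI cells, by 1.86-fold (Itga5) to 14.1-fold (Itga1). Itga9 and Itgb5 were lower in HEI cells, by 2.07-fold and 4.24-fold. By edgeR's quasi-likelihood test at an adjusted p of 0.05, 8 of the 10 members were called, where 37.3% of all genes tested were called. The 6 higher calls stood beside 17% of all genes called higher, and the 2 lower calls beside 20.3% called lower. The median log2 fold change of the members was 0.92, and that of all genes tested was -0.11. In 4 of the 10 members the 9 HEI and 6 FLK1+ libraries did not overlap at all, as in 18.2% of genes tested. Levels are per library, so a change in the share of cells that use a gene and a change in RNA per cell cannot be told apart.

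Itga1 had a lowest, median and highest level of 64.6, 148 and 184 CPM in HEI libraries, against 4.49, 9.41 and 11.3 CPM in FLK1+ libraries. The groups lay far apart, with the lowest HEI libraries all from ENG-FDG+ cells. The log2 fold change was 3.82 ± 0.21 (SE, edgeR adjusted p = 6.5e-08), and the difference within each replicate number was between 3.65 and 3.98 on the log2 scale. Itga3, whose product binds laminin-332 and laminin-511, spanned 22.5, 39.5 and 283 CPM in HEI libraries and 3.78, 8.91 and 17.0 CPM in FLK1+ libraries. The groups did not overlap, but the spread within them was wide, with every replicate 1 library the highest of its group. Its log2 fold change was 3.13 ± 0.65 (edgeR adjusted p = 0.0020). It was 2.53 both without ENG-FDG+ replicate 1 and in replicates 2 and 3 alone, and the call remained in both. Itga6, the other laminin-binding alpha chain, was the only alpha member without a call between the stages. It spanned 68.2, 120 and 175 CPM in HEI libraries and 102, 127 and 141 CPM in FLK1+ libraries, and the ranges overlapped throughout, with a log2 fold change of -0.13 ± 0.17 (adjusted p = 0.60). The direction differed by replicate number: Itga6 was higher in HEI cells by 0.46 in replicate 1 and lower by 0.67 and 0.24 in replicates 2 and 3, and in replicates 2 and 3 alone it was called lower (-0.35 ± 0.10, edgeR adjusted p = 0.0095).

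Itga5 spanned 80.9, 127 and 257 CPM in HEI libraries and 57.0, 61.2 and 131 CPM in FLK1+ libraries. The ranges overlapped because all 5 replicate 1 libraries were well above replicates 2 and 3 of their own group, while within each replicate number every HEI library was above both FLK1+ libraries. The log2 fold change was 0.90 ± 0.33 with an edgeR adjusted p of 0.0453, close to the threshold. The call was lost when any 1 of 7 libraries was left out (adjusted p = 0.0595 to 0.104), namely replicate 1 of any HEI group or replicate 2 or 3 of either FLK1+ group, and with the replicate number as a block it was 0.90 ± 0.07 (edgeR adjusted p = 4.1e-08). Itgav spanned 118, 156 and 193 CPM in HEI libraries and 48.9, 88.4 and 99.2 CPM in FLK1+ libraries, with no overlap. Its log2 fold change was 0.95 ± 0.17 (edgeR adjusted p = 6.4e-04). Itga4 spanned 20.02, 44.9 and 109 CPM in HEI libraries and 5.40, 9.59 and 22.4 CPM in FLK1+ libraries. Only FLK1+ LacZ+ replicate 3 reached into the HEI range, and the log2 fold change was 2.24 ± 0.40 (edgeR adjusted p = 7.3e-04). Itga9 went the other way, at 16.1, 28.0 and 47.0 CPM in HEI libraries and 43.2, 59.6 and 72.4 CPM in FLK1+ libraries. The ranges met only through ENG-FDG+ replicate 1, the highest HEI library, and FLK1+ LacZ+ replicate 1, the lowest FLK1+ library. Its log2 fold change was -1.05 ± 0.23 (edgeR adjusted p = 0.0026).

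Among the beta chains, Itgb1 spanned 723, 984 and 1118 CPM in HEI libraries and 236, 446 and 512 CPM in FLK1+ libraries, without overlap. Its log2 fold change was 1.28 ± 0.21 (edgeR adjusted p = 4.1e-04). Itgb5 spanned 1.25, 3.33 and 47.5 CPM in HEI libraries and 21.7, 24.9 and 45.1 CPM in FLK1+ libraries. Of the 9 HEI libraries, 8 lay at 7.22 CPM or below, and the other, ENG-FDG+ replicate 1, was the highest of all 15; it is also the library with the high mesenchyme and epithelial marker sums, whose part in its Itgb5 level was not tested. The log2 fold change of Itgb5 was -2.08 ± 0.62 (edgeR adjusted p = 0.0183), and without that library it was -3.15 (edgeR adjusted p = 1.3e-05). Itgb7 spanned 0.170, 0.857 and 2.002 CPM in HEI libraries and 0.185, 1.01 and 3.51 CPM in FLK1+ libraries. The ranges overlapped almost entirely, and the log2 fold change of -0.77 ± 0.58 had an adjusted p of 0.33; in replicates 2 and 3 alone it was 0.12, the opposite sign.

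**Figure D2:**
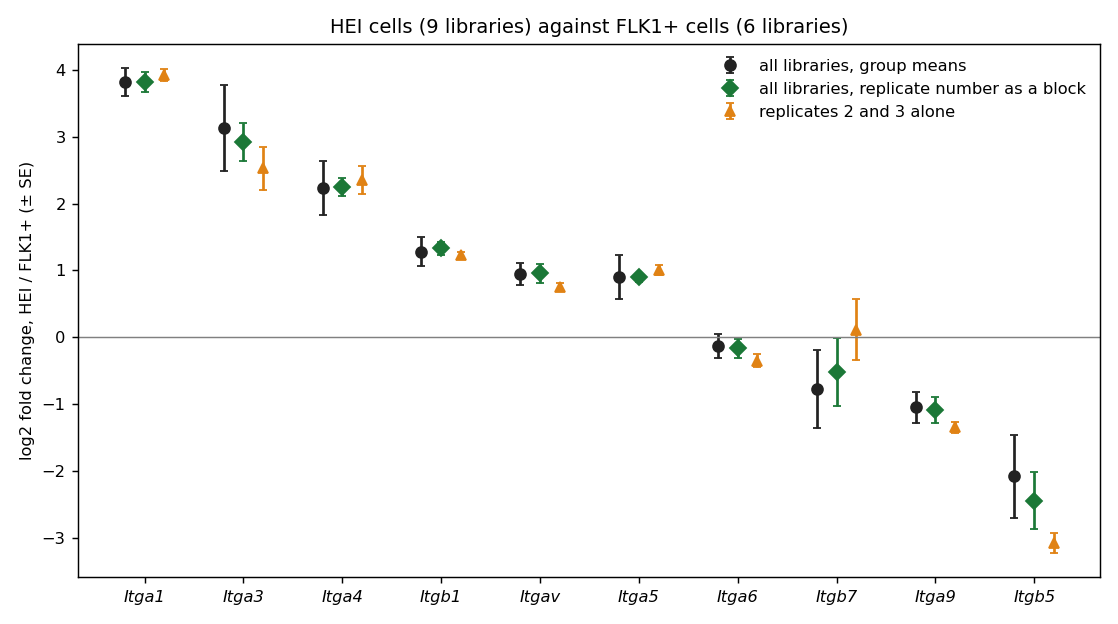
Log2 fold change of each member, HEI over FLK1+ cells, with its SE (bars), from the model with group means only (black circles), with the replicate number as a block (green diamonds) and from replicates 2 and 3 alone (orange triangles), with members ordered by the first. Itga1 stands at 3.82 and Itgb5 at -2.08 in the first model, the 3 models gave the same sign for 9 of the 10 members, and Itgb7 changes sign.

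With the replicate number as a block the same 8 members were called between the stages, where 66.2% of all genes were. In replicates 2 and 3 alone 9 were called, Itga6 being added, where 73.7% of all genes were.

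Within the HEI cells the design separates surface ENG from reporter activity. Between ENG+FDG+ and ENG-FDG+ cells, none of the 10 members passed the edgeR test with group means alone, where 0.278% of all genes did (38 genes). A single member, Itga1, had an unadjusted p under 0.05, as did 9.43% of all genes, and DESeq2 called it alone among the members, where it called 3.23% of all genes. The replicate numbers, whose origin is not stated, were taken to pair the libraries. With them as a block 3 members were called, where 10.8% of all genes were: Itga1 and Itga5 were higher and Itga4 was lower in ENG+FDG+ cells. Itga1 was measured at 119, 183 and 182 CPM in ENG+FDG+ replicates 1 to 3, against 64.6, 73.4 and 66.6 CPM in ENG-FDG+ cells. It was the only member whose groups did not overlap here, as in 14.4% of genes tested. Its log2 fold change was 1.24 ± 0.28 without the block (edgeR adjusted p = 0.0835) and 1.22 ± 0.19 with it (edgeR adjusted p = 0.0013). Without FLK1+ LacZ- replicate 1, a library of neither group, the unblocked fit called it (edgeR adjusted p = 0.0364).

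Itga4 ran the other way, at 20.6, 44.8 and 44.9 CPM in ENG+FDG+ libraries against 41.1, 107 and 109 CPM in ENG-FDG+ libraries. Both replicate 1 libraries were low, and the groups overlapped only through ENG-FDG+ replicate 1. In each of the 3 pairs the ENG+FDG+ library was the lower, by 0.99, 1.26 and 1.28 on the log2 scale of these pairs. The log2 fold change was -1.23 ± 0.58 without the block (edgeR adjusted p = 0.54) and -1.18 ± 0.19 with it (edgeR adjusted p = 0.0016). Itga5 was at 247, 115 and 127 CPM in ENG+FDG+ libraries and 209, 80.9 and 104 CPM in ENG-FDG+ libraries. It was higher in ENG+FDG+ cells in all 3 pairs, by a log2 fold change of 0.34 ± 0.10 with the block (edgeR adjusted p = 0.0457). In replicates 2 and 3 alone, which leaves out ENG-FDG+ replicate 1, 6 members were called, where 29.3% of all genes were: Itga1, Itga5, Itga6, Itga9 and Itgav were higher in ENG+FDG+ cells and Itga4 was lower. Itga9 turned on replicate 1, at 31.1, 28.2 and 27.0 CPM in ENG+FDG+ libraries and 47.0, 17.1 and 16.1 CPM in ENG-FDG+ libraries. The first pair thus ran against the other 2, and its log2 fold change was 0.11 ± 0.36 over all libraries and 0.79 ± 0.14 in replicates 2 and 3 (edgeR adjusted p = 2.2e-04).

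Itgb1 did not separate these fractions: it was at 783, 1002 and 984 CPM in ENG+FDG+ libraries and 723, 939 and 1046 CPM in ENG-FDG+ libraries. The ranges overlapped, and the log2 fold change was 0.03 ± 0.32. Itgb5 was at 7.22, 3.33 and 2.19 CPM in ENG+FDG+ libraries and 47.5, 1.25 and 2.30 CPM in ENG-FDG+ libraries. Its log2 fold change of -1.99 ± 1.01 came from replicate 1 and was 1.27 without ENG-FDG+ replicate 1, neither of which was called. The ENG-FDG+ libraries had the higher blood marker sums and the lower endothelial ones (2039 to 2133 CPM, against 3576 to 4897 CPM in ENG+FDG+ libraries), and the part of these sums in the Itga1 and Itga4 differences was not tested.

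**Figure D3:**
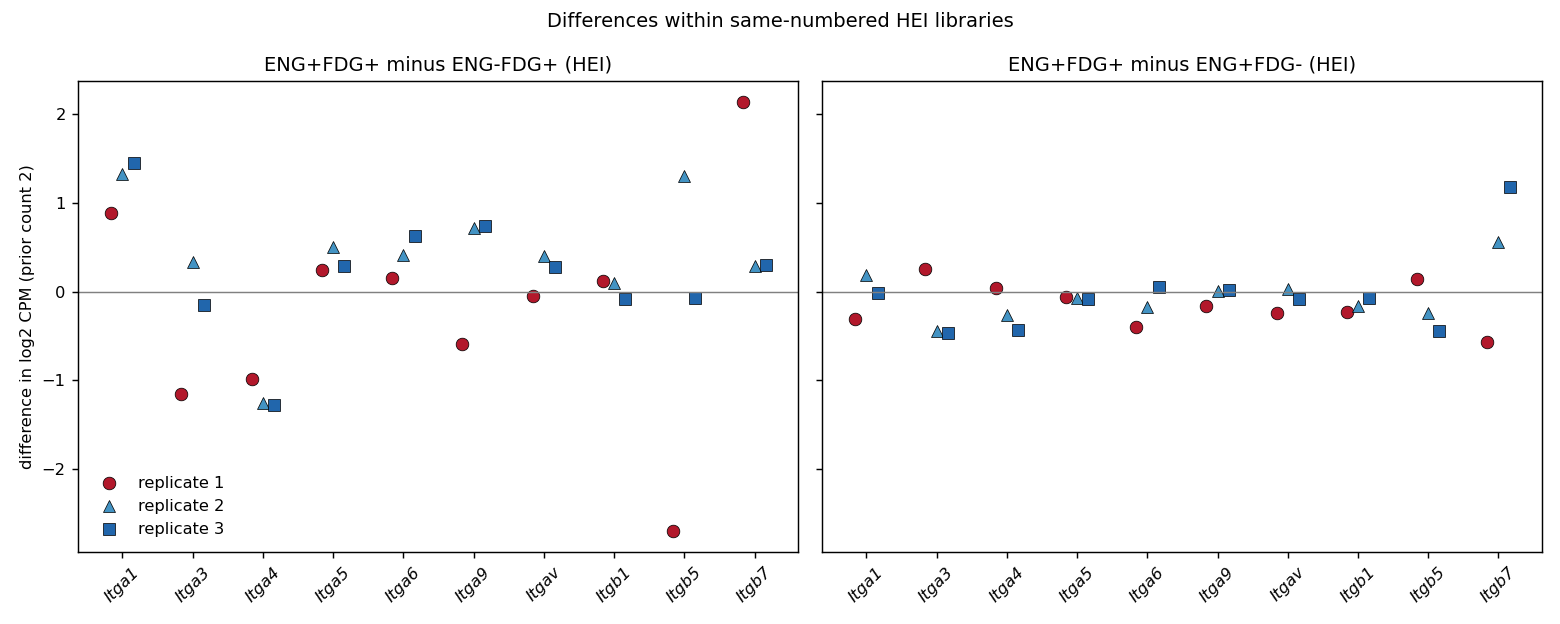
Difference of each member between same-numbered HEI libraries in log2 CPM (prior count 2), ENG+FDG+ minus ENG-FDG+ on the left and ENG+FDG+ minus ENG+FDG- on the right, with marker shape and colour for the replicate number. On the left Itga1 lies above 0 and Itga4 below 0 in all 3 pairs and Itgb5 is scattered from -2.69 to 1.30, while on the right most points lie near 0.

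ENG-FDG+ cells were also set against ENG+FDG- cells; this comparison uses the same 3 ENG-FDG+ libraries, so the values stand beside the previous ones and are no second test of them. Again no member passed with group means alone, where 0.351% of all genes did (48 genes), 1 had an unadjusted p under 0.05 (9.58% of all genes did), and DESeq2 called 1 (3.26% of all genes), Itga1 in each case. With the block 3 were called, where 11.1% of all genes were. Itga1 was lower in ENG-FDG+ cells, at 64.6, 73.4 and 66.6 CPM, against 148, 160 and 184 CPM in ENG+FDG- cells (log2 fold change -1.27 ± 0.19 with the block, edgeR adjusted p = 0.0011). The groups did not overlap, which held for 14.6% of genes tested. Itga4 was higher in ENG-FDG+ cells, at 41.1, 107 and 109 CPM, against 20.02, 53.6 and 60.8 CPM in ENG+FDG- cells (0.96 ± 0.19 with the block, edgeR adjusted p = 0.0056). Itga5 was lower in ENG-FDG+ cells, by a log2 fold change of -0.41 ± 0.10 with the block (edgeR adjusted p = 0.0196). Without FLK1+ LacZ- replicate 1 the unblocked fit called Itga1 here too (edgeR adjusted p = 0.0370). In replicates 2 and 3 alone 7 members were called, where 27.1% of all genes were, Itga4 higher and 6 lower in ENG-FDG+ cells.

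Reporter activity at a fixed surface phenotype went with little difference in these genes. Between ENG+FDG+ and ENG+FDG- cells none of the 10 members was called, as was no gene at all (0% of genes tested; 39 genes had an unadjusted p under 0.05, none of them a member, and DESeq2 called 0 genes). Member log2 fold changes ran from -0.29 for Itga4 to 0.15 for Itgb7. Itga1, which set ENG-FDG+ cells apart, had overlapping values of 119, 183 and 182 CPM in ENG+FDG+ libraries and 148, 160 and 184 CPM in ENG+FDG- libraries. Between LacZ+ and LacZ- FLK1+ cells none of the 10 was called either (0% of genes tested; 170 genes had an unadjusted p under 0.05, none a member, and DESeq2 called 8 genes, none a member), with log2 fold changes from -0.28 for Itgb7 to 0.49 for Itga3. Itga3 was at 17.0, 4.70 and 9.75 CPM in LacZ+ libraries and 10.5, 3.78 and 8.06 CPM in LacZ- libraries, higher in LacZ+ cells in 3 of 3 pairs with overlapping groups. With the block 0 members were called in both comparisons, as were 0% of all genes tested. The difference between these 2 reporter effects, tested as an interaction, was called for 0 of the 10 members and for 0% of genes (97 had an unadjusted p under 0.05, none a member, and DESeq2 called 0). With 3 libraries a group these counts of 0 do not show that levels were equal.

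The groups were also ordered by their mean level. For Itga1 the order was ENG+FDG- (164 CPM), ENG+FDG+ (161 CPM), ENG-FDG+ (68.2 CPM), LacZ+ (10.04 CPM) and LacZ- (7.41 CPM), with no overlap below the first pair except between the 2 FLK1+ groups. For Itga4 it was ENG-FDG+ (85.9 CPM), ENG+FDG- (44.8 CPM), ENG+FDG+ (36.8 CPM), LacZ+ (13.1 CPM) and LacZ- (9.33 CPM), and every neighbouring pair overlapped. Itga9 had the reverse order of stages, LacZ- (61.2 CPM) and LacZ+ (56.8 CPM) standing above ENG+FDG- (29.8 CPM) with no overlap at that step. Itga6 had no gap between neighbours at any step, from 133 CPM in ENG+FDG- to 89.8 CPM in ENG-FDG+ cells.

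Per kb of exon, the 7 alpha members made up 77.6% to 91.5% of the summed level of 17 integrin alpha genes in every library. Their mixture differed by stage. Itga1 held 4.87%, 12.1% and 11.2% of the sum in ENG+FDG+ libraries 1 to 3, 2.25%, 5.81% and 4.63% in ENG-FDG+ libraries, and 5.69%, 10.4% and 10.8% in ENG+FDG- libraries, against a mean of 1.005% in FLK1+ LacZ+ cells. Itga9 held 3.31% to 3.86% in the HEI group means, against 13.96% and 14.9% in FLK1+ LacZ+ and LacZ- cells, and Itga6 10.5% to 14.03%, against 24.8% and 26.2%. Itga5 held 26.3% to 32.0% in HEI group means and 29.9% and 31.2% in FLK1+ group means, but these means pool unlike libraries: its share was 37.97%, 27.4% and 37.1% in replicate 1 of the ENG+FDG+, ENG-FDG+ and ENG+FDG- groups and 42.7% and 46.2% in replicate 1 of LacZ+ and LacZ- cells, against 24.1% to 29.5% in HEI and 23.3% to 24.1% in FLK1+ replicates 2 and 3. The summed alpha level itself was 68.0 to 155 CPM per kb in HEI libraries and 49.6 to 59.2 CPM per kb in FLK1+ libraries. Among HEI fractions the ratio of Itga1 to Itga4 in CPM per kb was 4.35, 3.07 and 3.04 in ENG+FDG+ libraries, 1.18, 0.514 and 0.458 in ENG-FDG+ libraries and 5.57, 2.25 and 2.28 in ENG+FDG- libraries. Every ENG-FDG+ library lay below every ENG+ one. The ratio joins 2 members already described as differing between these same libraries, so it restates those differences and is no separate result.

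**Figure D4:**
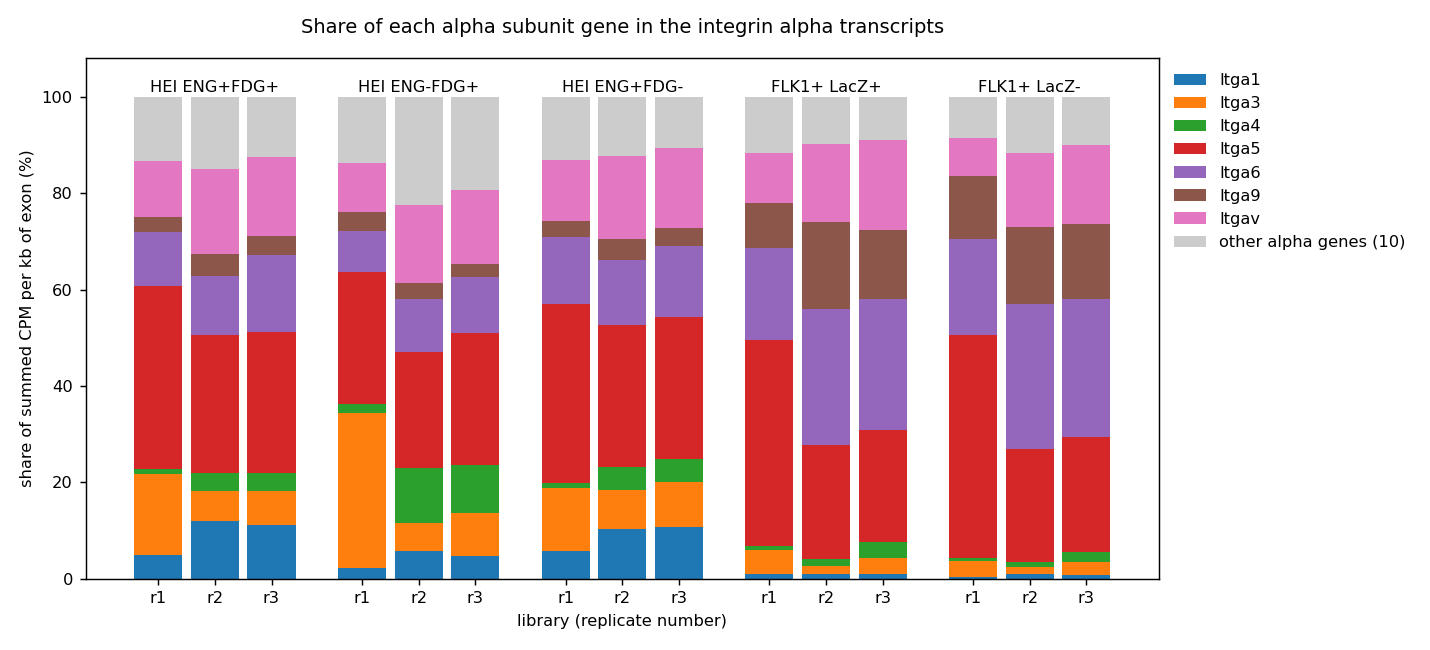
Share of each of the 7 alpha members, and of the 10 other alpha genes together (grey), in the summed CPM per kb of exon of all 17 integrin alpha genes, in percent, 1 bar a library with HEI groups left of FLK1+ groups. Itga9 (brown) and Itga6 (purple) fill more of the FLK1+ bars, Itga1 (blue) more of the HEI bars, and Itga3 (orange) reaches 32.1% in ENG-FDG+ replicate 1.

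The partners of these receptors were described by lists of related genes. Of 17 other integrin genes, 11 passed the filter on low counts and 6 were called between HEI and FLK1+ cells, 3 higher and 3 lower (37.3% of all genes tested were called), with a median log2 fold change of 0.53. Itga2, for the collagen receptor chain of platelets, was higher by 2.996 ± 0.50. Itga2b, for CD41, was higher by 2.52 ± 0.32, and its partner Itgb3 by 2.24 ± 0.62. Itgb8, a partner of the Itgav product, was lower by 3.44 ± 0.60 (log2, edgeR adjusted p = 4.0e-04, 4.6e-05, 0.0117 and 5.7e-04 in that order of genes). Itgb3 was at 306 CPM in ENG-FDG+ replicate 1 and at 8.76 to 85.3 CPM in the other 8 HEI libraries. Its FLK1+ levels reached 31.0 CPM, and without ENG-FDG+ replicate 1 its log2 fold change was 1.88 (edgeR adjusted p = 0.0165). Itgb8 was scarce, on 0 to 8 reads in each HEI library and at most 49 reads in a FLK1+ library. The Itga2 ranges overlapped, with a lowest HEI level of 1.44 CPM and a highest FLK1+ level of 1.90 CPM. Of 31 ligands, 29 were tested and 18 called, 16 higher and 2 lower in HEI cells, against 17% and 20.3% of all genes, with a median log2 fold change of 1.07. Vcam1, a ligand of the Itga4 product, averaged 4.34, 5.57 and 5.22 CPM in ENG+FDG+, ENG-FDG+ and ENG+FDG- cells and 0.169 and 0.0467 CPM in LacZ+ and LacZ- cells, where it had 0 to 3 reads a library. Madcam1 was higher in HEI cells by 4.52 ± 0.66, Col3a1 by 5.19 ± 0.91 and Thbs1, for thrombospondin 1, by 5.14 ± 0.61 (log2, edgeR adjusted p = 1.4e-04, 5.7e-04 and 2.9e-05). Col3a1 was at 47.7 CPM in ENG-FDG+ replicate 1, at 1.33 to 7.46 CPM in the other 8 HEI libraries and at 0.447 CPM or below in FLK1+ libraries, and without that library its log2 fold change was 4.42 (edgeR adjusted p = 1.8e-04). That of Madcam1 was 5.32 without LacZ+ replicate 1, the farthest it moved. Fn1, for fibronectin, was not called, at 5459 ± 351 CPM in HEI libraries (SD, n = 9) and 5785 ± 893 CPM in FLK1+ libraries (SD, n = 6).

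Of 28 integrin-linked adhesion proteins, all tested, 15 were called, 13 higher and 2 lower, against 17% and 20.3% of all genes, with a median log2 fold change of 0.73. With the replicate block 23 were called, 20 higher and 3 lower, where 66.2% of all genes were. Fermt3, the kindlin of blood cells, was higher in HEI cells by 2.94 ± 0.34, and the focal adhesion kinase relative Ptk2b by 3.32 ± 0.48 (3.94 without LacZ+ replicate 1). Tln2, a talin that links integrins to actin, was lower by 3.42 ± 0.25 (log2, edgeR adjusted p = 2.4e-05, 1.3e-04 and 6.8e-07 in that order of genes). The other talin, Tln1, ran the opposite way, at 199 to 556 CPM in HEI libraries and 72.1 to 170 CPM in FLK1+ libraries. Tln1 was also the more abundant, with stage means of 30.9 and 10.7 CPM per kb, against 0.430 and 4.63 CPM per kb for Tln2. Lims2, an adaptor of the integrin-linked kinase complex, was at 5.94 CPM in ENG-FDG+ replicate 1, at 0.0962 to 1.03 CPM in the other 8 HEI libraries, on 1 to 17 reads each, and at 0 or 1 read in each FLK1+ library. The ranges overlapped; the fitted log2 fold change was 3.97 ± 1.14 (edgeR adjusted p = 0.0145), 2.83 without ENG-FDG+ replicate 1 (edgeR adjusted p = 0.0196) and 4.93 without LacZ- replicate 3. Between ENG+FDG+ and ENG-FDG+ cells 1 gene of these 3 lists was called without the block, where 0.278% of all genes were: the ligand Postn, for periostin, at 3.85 ± 0.94 CPM in ENG+FDG+ cells and 52.3 ± 35.3 CPM in ENG-FDG+ cells (SD, n = 3 each), a log2 fold change of -3.76 ± 0.68 (edgeR adjusted p = 0.0436). It was called in 3 of the 15 fits that left out 1 library, and was -3.20 without ENG-FDG+ replicate 1 (edgeR adjusted p = 0.0707). With the block, where 10.8% of all genes were called, 2 other integrin genes (1 higher and 1 lower in ENG+FDG+ cells), 11 ligands (4 higher and 7 lower) and 6 adhesion proteins (4 higher and 2 lower) were called.

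**Figure D5:**
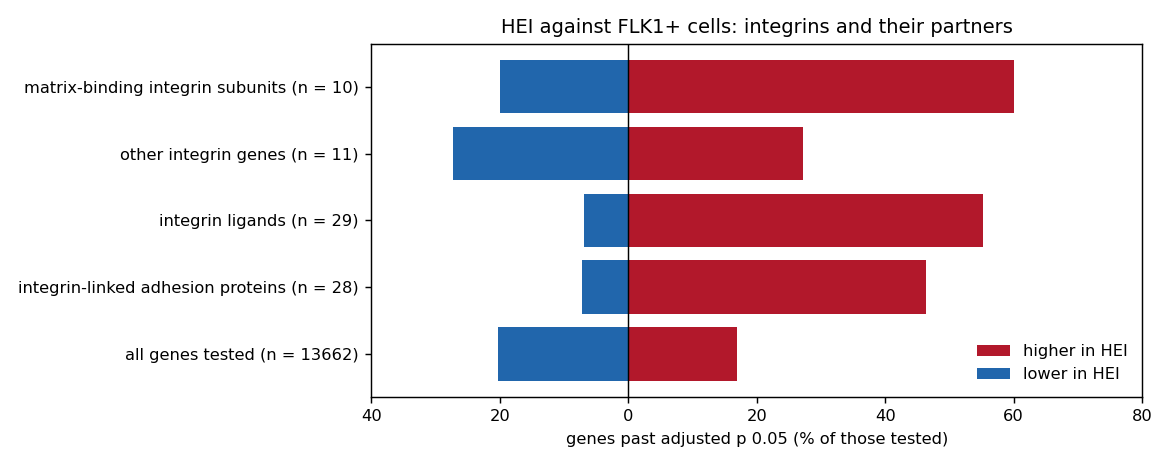
Percent of the tested genes of each list that were higher (red, right) or lower (blue, left) in HEI than in FLK1+ cells at an edgeR adjusted p of 0.05, with the number tested in brackets and all genes tested at the bottom. The 10 members had 6 genes higher and 2 lower, against 17% and 20.3% of all genes.

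The genes whose levels ran most like each member were found by Pearson's r over the 15 libraries after subtracting the mean of each replicate number. Candidates were 8678 genes averaging at least 10 CPM. Integrin genes and unnamed gene models were left out beforehand, so no other integrin could be a match. The matches are descriptions over libraries that share stages and sorts. Itga1 was most like Cav1 (r = 0.998), for the coat protein of caveolae, S1pr1, a sphingosine phosphate receptor, and Klf3 (both r = 0.997). Itga3 was most like Csrp1 (r = 0.993), Serpinh1, a collagen chaperone (r = 0.992), and Synpo (r = 0.991). Itga4 was most like Smim3 (r = 0.982), and Itga9 most like Tgfb2, a TGF-beta ligand (r = 0.990), with Gli3, a hedgehog pathway transcription factor (r = 0.981), next. The best match of Itga5 was Dusp1 (r = 0.992), of Itgav Sh3glb1 (r = 0.993), of Itgb1 Kidins220 (r = 0.990) and of Itgb5 Fxyd6 (r = 0.991). Itga6 and Itgb7, the 2 members with no call between the stages over all libraries, had the weakest best matches, Tro at r = 0.874 and Fam118b at r = 0.914.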

How the data were processed

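RNA sequencing of 15 libraries was analysed. Per the labels' protocols, RNA of the sorted fractions was amplified by a Nugen kit before Illumina library construction. The authors deposited 1 table of raw counts, a whole number per gene symbol and library, made with STAR 2.4.0 and HTSeq 0.6.1 on mm10, per the submitters' processing notes; the annotation, strandedness and any filter are not stated there. Of 24061 lines, 27 with a calendar date for a symbol (0.153% to 0.349% of counts) were left out.

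Groups came from the labels. The main analysis was edgeR 4.0.16 in R 4.3.3 with limma 3.58.1: filterByExpr, TMM factors, a robust quasi-likelihood model with 1 mean per group over all 15 libraries, and Benjamini-Hochberg adjustment over 13662 genes, called at 0.05. SEs were derived from the log2 fold change and its F statistic. Members, gene lists and the rule for named genes (all members, up to 4 called genes of each list with the largest changes, or its 2 most abundant genes where none was called, and each member's 3 most alike genes) were chosen with earlier results of these data known. Code was tested on simulated counts.

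Same-numbered libraries deviated together (correlations of deviations from group means 0.432 to 0.867 in all 30 pairs), so replicate numbers were taken to pair libraries. Within number 2 or 3 these correlations were 0.432 to 0.680, and between numbers 2 and 3 they were much alike, at 0.429 to 0.636. Pairing within replicates 2 and 3 is thus uncertain. By mean correlation 12 of the 15 libraries were nearest their own number. The numbers' origin is not stated. The common biological coefficient of variation was 0.477, 0.199 with the replicate block and 0.0761 in replicates 2 and 3 alone. Alternatives were RLE factors, 2 other filters, only the groups compared, DESeq2 1.42.0, the replicate block, replicates 2 and 3 alone with and without it, and each library left out. Read counts without molecular identifiers are not independent molecules; the number of libraries limits precision.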

Additional observations from a re-analysis of the deposited data

How the results depend on the processing

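Counts of called members by comparison kept within 1.5 times under RLE factors, both other filters and, where it applied, a fit of only the groups compared. For ENG+FDG+ against ENG-FDG+ cells the count of 0 became 1 with DESeq2, 3 with the replicate block, 6 in replicates 2 and 3 and 6 with both. For ENG-FDG+ against ENG+FDG- cells it became 1, 3, 7 and 8 under the same settings. Leaving out 1 library gave 0 to 1 in both and 7 to 8 for HEI against FLK1+ cells. Between these stages DESeq2 called 7 members, where it called 41.6% of all genes, and gave Itgb5 no adjusted p. The block changed no other member's call. The cause of these changes was not tested.

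Signs reversed in replicates 2 and 3 alone, without and with the block, for Itgb7 (LacZ+ against LacZ- 0.12 and 0.17; HEI against FLK1+ 0.12 and 0.14; ENG-FDG+ against ENG+FDG- 0.71 and 0.68), Itga3 (ENG+FDG+ against ENG-FDG+ 0.093 and 0.13; ENG-FDG+ against ENG+FDG- -0.53 and -0.57) and Itgb5 (0.68 and 0.67; -0.99 and -0.98 in these 2). Signs also turned for Itga1 (ENG+FDG+ against ENG+FDG- 0.11 and 0.11), Itga9 (0.037 and 0.037 there; LacZ+ against LacZ- 0.0071 and 0.00037) and, for the interaction, Itga1 (0.033 and 0.032), Itga6 (0.095 and 0.089) and Itgb5 (-0.15 and -0.15, and -0.0011 with the block over all replicates). Leave-one-out values, taken in the reporter comparisons for the 2 members with the most extreme changes, spanned 0 in LacZ+ against LacZ- cells for Itga3 (-0.050 to 0.84) and Itgb7 (-1.11 to 0.96), in ENG+FDG+ against ENG+FDG- cells for Itgb7 (-0.19 to 1.20) and Itga4 (-0.64 to 0.0017), in ENG+FDG+ against ENG-FDG+ cells for Itga3 (-1.84 to 1.04), Itga5 (-0.12 to 0.83), Itga9 (-0.15 to 0.80), Itgb1 (-0.091 to 0.15) and Itgb5 (-2.62 to 1.27), and in ENG-FDG+ against ENG+FDG- cells for Itga3 (-1.09 to 1.38), Itga5 (-0.92 to 0.039), Itga9 (-0.88 to 0.10), Itgb5 (-1.38 to 2.45) and Itgb7 (-1.25 to 0.29). None of the members reversed was called in that comparison in the main analysis.

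Over all genes, 38 and 48 calls in the 2 ENG- comparisons became 1482 and 1515 with the block, 3899 and 3605 in replicates 2 and 3 (4127 and 3822 with the block), 441 and 445 with DESeq2, 12 and 13 without a filter, and 0 and 0 with only the groups compared; the first became 65 at 5 CPM in 3 libraries. The 5096 stage calls became 9039, 9815 and 9883 with the block, replicates 2 and 3, and both. In replicates 2 and 3, without and with the block, 75 and 128 genes were called for ENG+FDG+ against ENG+FDG-, 8 and 32 for LacZ+ against LacZ- (8 with DESeq2) and 4 and 18 for the interaction. Leaving out 1 library gave 0 to 61 and 0 to 62 calls in the 2 ENG- comparisons, 4656 to 5732 between the stages and 0 to 1 between FLK1+ groups. RLE factors moved the median of all genes by at most 0.02 (log2).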
